A study of Caenorhabditis elegans with 2 samples.

Results

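Peaks that lie at the promoters of more than 1 protein-coding gene were picked out from a map of MADF-3 binding in whole young adult Caenorhabditis elegans. A peak belonged to this set when its summit lay within 500 bp of the annotated 5' ends of at least 2 protein-coding genes, a rule that uses position alone. Of 2741 peaks in the series-wide list, 220 met the rule, 862 lay at 1 promoter and 1659 lay at none. Of the 220, 200 were at divergent pairs, in which exactly 2 genes run away from each other, the minus-strand 5' end at the lower coordinate. The other 20 were 12 at genes on the same strand, 4 at opposite-strand genes whose 5' parts overlap and 4 at 3 genes. The 220 peaks touched 440 genes in 218 distinct gene sets, since C05C10.7/C05C10.5 and ash-2/Y17G7B.20 carried 2 shared peaks each.

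The data are chromatin immunoprecipitation and sequencing with an antibody against GFP from strain RW12241, in which TY1, EGFP and 3xFLAG were inserted by CRISPR at madf-3 itself (allele st12241). The animals came from starved L1 larvae and were collected at 63 hours. There were 2 biological replicates of this 1 group and no other genotype or condition, so each comparison below is between places in the genome, each given in both replicates where their lists allow it. The labels name 1 strain, and MADF-3 was read through its tag and from all tissues together. Depth is unknown, since the lists give no read numbers, and every interval covers counting error only. Peaks and genes are not replicates.

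MADF-3 is named for its MADF domain, a Myb-related DNA-binding fold that other animal proteins use to bind short DNA sequences. In divergent gene pairs the stretch between the 5' ends serves as the upstream region of both genes, and a factor bound there is placed to act on either, on both or on neither. Many worm messenger RNAs are trans-spliced, meaning that the start of the transcript is replaced by a leader RNA. An annotated 5' end can thus lie downstream of where transcription starts. A peak between the ends of a pair therefore does not say which gene, if any, is regulated.

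The bound sequence itself is shown for the 6 strongest divergent peaks whose 100 bp around the summit may be printed here, because these windows carry the shared letters described further on. All are on the plus strand of ce11, 5' to 3', with the summit at base 51. Capitals mark any of 10 8-mers, on either strand, that were ranked in the peaks at 1 promoter and not in these peaks. The windows are chrIII:12608772-12608871 for epc-1/Y111B2A.12, chrIII:7162446-7162545 for syf-2/K04G7.1, chrII:11453172-11453271 for rsp-2/rsp-1, chrIII:9780762-9780861 for sqv-3/vha-1, chrIII:12688155-12688254 for rsp-3/spin-4 and chrIV:17087618-17087717 for snx-13/snr-1. None overlapped an annotated exon, and their GC content was 52% to 63%.
epc-1/Y111B2A.12: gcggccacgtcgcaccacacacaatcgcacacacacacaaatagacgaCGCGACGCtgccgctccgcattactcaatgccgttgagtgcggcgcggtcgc
syf-2/K04G7.1: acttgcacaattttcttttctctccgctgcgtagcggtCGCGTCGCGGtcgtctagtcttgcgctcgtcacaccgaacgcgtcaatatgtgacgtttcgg
rsp-2/rsp-1: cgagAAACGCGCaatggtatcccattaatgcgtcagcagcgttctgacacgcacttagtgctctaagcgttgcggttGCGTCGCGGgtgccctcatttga
sqv-3/vha-1: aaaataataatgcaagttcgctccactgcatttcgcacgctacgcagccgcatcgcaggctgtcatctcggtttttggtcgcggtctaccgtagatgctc
rsp-3/spin-4: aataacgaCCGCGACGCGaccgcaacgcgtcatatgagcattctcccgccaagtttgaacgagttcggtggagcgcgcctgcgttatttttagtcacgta
snx-13/snr-1: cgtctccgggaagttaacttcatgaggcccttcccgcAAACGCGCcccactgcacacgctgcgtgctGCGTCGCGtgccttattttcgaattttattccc

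The motif CGCGACGC, or its reverse complement GCGTCGCG, stood in 5 of these 6 windows, and the sqv-3/vha-1 window held none of the 10. Whole gaps between 5' ends are shown next for 3 pairs that are close enough to print complete, to let the summit be seen against both genes. The minus-strand gene, named first, starts just left of each sequence and the plus-strand gene just right of it. The T26A8.4/pdtf-1 gap is chrIV:8432894-8433037 (144 bp, summit at base 50). The cyk-4/pdr-1 gap is chrIII:13771225-13771512 (288 bp, summit at base 144). The rpl-7A/set-21 gap is chrIV:4390591-4390843 (253 bp, summit at base 79), and it holds none of the ranked 8-mers.
T26A8.4/pdtf-1: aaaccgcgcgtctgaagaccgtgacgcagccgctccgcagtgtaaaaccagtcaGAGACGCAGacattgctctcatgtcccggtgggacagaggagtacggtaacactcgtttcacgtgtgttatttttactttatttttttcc
cyk-4/pdr-1: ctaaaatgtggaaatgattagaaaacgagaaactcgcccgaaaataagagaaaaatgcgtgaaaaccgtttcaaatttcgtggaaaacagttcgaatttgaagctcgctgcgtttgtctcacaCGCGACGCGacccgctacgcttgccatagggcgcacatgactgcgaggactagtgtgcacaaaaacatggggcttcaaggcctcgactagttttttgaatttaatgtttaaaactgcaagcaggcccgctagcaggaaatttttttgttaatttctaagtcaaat
rpl-7A/set-21: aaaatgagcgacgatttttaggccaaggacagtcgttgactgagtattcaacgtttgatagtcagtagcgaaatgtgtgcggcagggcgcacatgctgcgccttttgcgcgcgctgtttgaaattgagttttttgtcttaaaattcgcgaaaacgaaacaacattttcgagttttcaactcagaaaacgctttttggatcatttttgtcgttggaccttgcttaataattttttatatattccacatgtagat

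Signal, the peak caller's own strength, was highest of all 2741 peaks at the divergent pair rps-19/hsr-9, a small-subunit ribosomal protein gene and the worm relative of 53BP1, at chrI:9625944-9626209. It was 3403 in the series-wide list, 1793 in replicate 1 and 1616 in replicate 2, with the summit at -282 bp from the start of rps-19 and -163 bp from that of hsr-9 (negative is upstream). The next strongest shared peak, at rank 4 of all peaks, lay at epc-1, the worm Enhancer of Polycomb homologue, and Y111B2A.12, with 2269 in the series-wide list, 1126 in replicate 1 and 1106 in replicate 2. Both peaks exceeded every other shared peak in each replicate.

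The peak at syf-2, a homologue of a splicing factor, and K04G7.1 had signals of 661 in replicate 1 and 663 in replicate 2. The peak between rsp-2 and rsp-1, both SR-protein splicing factors, had 508 in replicate 1 and 524 in replicate 2. The peak at rsp-3, also an SR protein, and spin-4, a spinster-type transporter, had 459 in replicate 1 and 418 in replicate 2. At snx-13, a sorting nexin, and snr-1, a core Sm protein of the spliceosome, the values were 476 in replicate 1 and 404 in replicate 2. The syf-2 peak was the highest of these 4 in each replicate.

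The rest of the 12 strongest divergent peaks lay at genes of several other roles. The peak at unc-40, the netrin receptor, and npp-7, a nucleoporin, had signals of 584 in replicate 1 and 640 in replicate 2. At sqv-3, a glycosyltransferase of proteoglycan linker synthesis, and vha-1, a vacuolar ATPase subunit, they were 499 in replicate 1 and 431 in replicate 2. At lin-53, a histone-binding protein of the DREAM complex and other chromatin complexes, and nra-2 they were 470 in replicate 1 and 394 in replicate 2. These peaks were well above the median shared peak, which had 51 in replicate 1 and 47.6 in replicate 2. The last 3 were T26A8.4/pdtf-1 with 402 in replicate 1 and 333 in replicate 2, cec-5/nol-10 with 316 in replicate 1 and 375 in replicate 2, and T10B5.4/cct-7 with 373 in replicate 1 and 288 in replicate 2. The gene cct-7 codes for a subunit of the CCT chaperonin, and cec-5 for a chromodomain protein. All 12 met a peak in each replicate's own thresholded list.

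Among the 20 other arrangements, the 2 strongest peaks both lay at ash-2, a component of histone H3K4 methyltransferase complexes, and the opposite-strand gene Y17G7B.20, whose 5' ends are 6 bp apart and overlap. The stronger, 483 bp inside ash-2, had signals of 440 in replicate 1 and 342 in replicate 2. The weaker, 92 bp inside ash-2, had 255 in replicate 1 and 215 in replicate 2. Far below them came egl-30, a Gq alpha subunit, with C53H9.4 on the same strand (74.3 in replicate 1 and 122 in replicate 2), and rpl-43 with xrn-2, a 5'-to-3' exoribonuclease (79.8 in replicate 1 and 94 in replicate 2). The 3-gene peak at C08B6.18/wdr-20/C08B6.8 had 71.6 in replicate 1 and 75.8 in replicate 2, and the same-strand peak at C47E8.11/gasr-8 had 54.9 in replicate 1 and 40.8 in replicate 2. The remaining 3-gene peaks were at C13F10.8/C13F10.6/kxd-1, sam-4/F59E12.17/zyg-1 and Y62E10A.20/Y62E10A.23/mdt-9, and the remaining overlapping pairs were ctps-1/pus-1 and T22D1.17/T22D1.8.

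Shared promoters took more peaks than the sequence they occupy. Of the 1082 promoter peaks, 220 were shared, 20.3% (exact 95% interval 18% to 22.9%), while 6.1% of all bases within 500 bp of a 5' end lie within reach of 2 or more genes. Per Mb of sequence there were 192 summits (167 to 219) where windows of 2 or more genes overlap and 48.8 (45.6 to 52.1) in the window of 1 gene, a ratio of 3.93 (3.38 to 4.56). A base in an overlap belongs to several promoters. With bases counted once for each gene window that covers them and summits counted once, the density was 95 per Mb (82.8 to 108) in overlaps. It was 48.8 per Mb in single windows, and the intervals did not meet. Such a count lowers the overlap density by construction, since each shared summit also lies in 2 or more windows. It therefore cannot show whether the difference in density is smaller per promoter than per base.

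Most of the additional density was at divergent pairs. Their windows held 230 summits per Mb, and same-strand overlaps held 59.8 (30.9 to 105), against 48.8 in windows of 1 gene. The ratio for same-strand overlaps, 1.23, had an interval of 0.631 to 2.15 that includes 1, from 12 peaks. Overlaps of opposite-strand genes had 70.5 summits per Mb (19.2 to 180) and overlaps of 3 or more genes 185 (50.5 to 474), from 4 peaks each. Divergent pairs made up 90.9% of shared peaks (86.3% to 94.4%) and 75.7% of the overlapping bases.

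Within divergent pairs the summits sat in the gap. Between the 5' ends lay 175 of 200 summits, 87.5% (82.1% to 91.7%), while 55.5% of the bases within reach of both genes are there. The gap held 363 summits per Mb (311 to 421), and the upstream side of single promoters held 65.8 (60.4 to 71.5), a ratio of 5.52 (4.63 to 6.55). With the gap's bases counted for each gene they serve and summits counted once, its density was 181 per Mb (156 to 210), again lower by construction. Inside the genes the difference was smaller, with 64.7 summits per Mb (41.9 to 95.6) at divergent pairs and 33.5 (29.9 to 37.4) at single promoters. These 2 values were counted per base, not for each gene, and were not matched for distance. In 100 bp steps inward to 400 bp, divergent pairs held 93.4, 33.5, 40.8 and 107 summits per Mb. Single promoters held 55.8, 43.8, 19.3 and 27.9 in the same steps, and the intervals overlapped in each. In the 100 bp steps upstream, the density at divergent pairs was highest 200 to 300 bp from the nearest 5' end, at 445 per Mb (321 to 601), as it was at single promoters, at 88.6 (74.9 to 104).

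**Figure D1:**
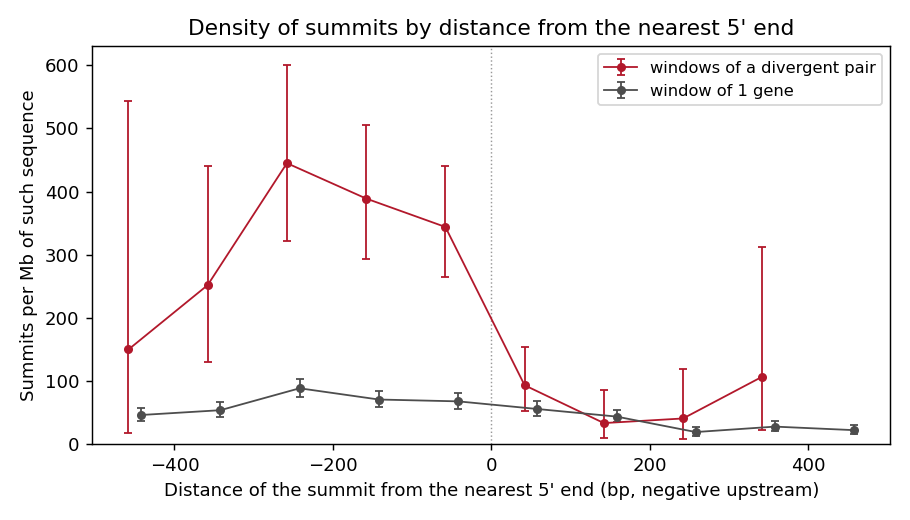
Density of summits (vertical axis, summits per Mb) by distance from the nearest 5' end (horizontal axis, bp in steps of 100, negative upstream), for windows of divergent pairs (red) and of 1 gene (grey), with exact 95% Poisson intervals. Upstream the red points lie above the grey ones except that the interval 400 to 500 bp away, from 2 summits, overlaps, and the divergent step 400 to 500 bp inside a gene, with 0 summits on 0.0048 Mb, is not drawn.

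Seen from the annotation, 1794 divergent pairs have 5' ends up to 1000 bp apart, and 207 of them, 11.5% (10.1% to 13.1%), had a peak within 500 bp of both ends. This count includes pairs that are part of a set of 3 genes. In 89 further pairs, 4.96%, a peak lay at 1 of the genes alone. Genes in such pairs had a promoter peak in 502 of 3539 cases, 14.2% (13.1% to 15.4%), and other protein-coding genes in 749 of 16434, 4.56% (4.24% to 4.89%), with 6.26% of all 19973 genes as background. Of the 1251 genes with a promoter peak, 35.2% shared it.

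The share of pairs with a shared peak changed with the gap, and wide gaps leave less sequence within 500 bp of both ends. It was 10.9% for gaps up to 200 bp (27 of 248 pairs), 15.9% for 200 to 400 bp (77 of 484), 15% for 400 to 600 bp (61 of 408), 9.62% for 600 to 800 bp (35 of 364) and 2.41% for 800 to 1000 bp (7 of 290). Per Mb of sequence within reach of both genes the same 5 classes held 125, 226, 300, 313 and 232 pairs with a peak. The lowest value per Mb was thus at the narrowest gaps and not at the widest. At gaps up to 200 bp, however, most of the sequence within reach of both genes lies inside the genes. There 13 of 28 summits lay between the 5' ends, while at gaps over 400 bp all summits did. The density in the gap alone was not computed by class, these values have no intervals, and the part of this placement in them was not tested.

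The gap at the 200 divergent peaks had a median of 396 bp (quartiles 267 and 573). The narrowest was 9 bp at cdc-37, a co-chaperone of protein kinases, and W08F4.3, where the summit lay 202 bp inside cdc-37, and the widest was 905 bp at pgam-5 and the nucleoporin gene npp-21, with the summit at -427 bp from pgam-5 and -478 bp from npp-21. The median summit was 137 bp from the nearer 5' end and 288 bp from the farther one. The 175 summits in the gap lay a median of 60 bp from its middle, and 73 of them were within 50 bp of it. The nearer gene was on the plus strand for 109 peaks and on the minus strand for 91. Single-promoter summits lay a median of 206 bp from their 5' end.

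**Figure D2:**
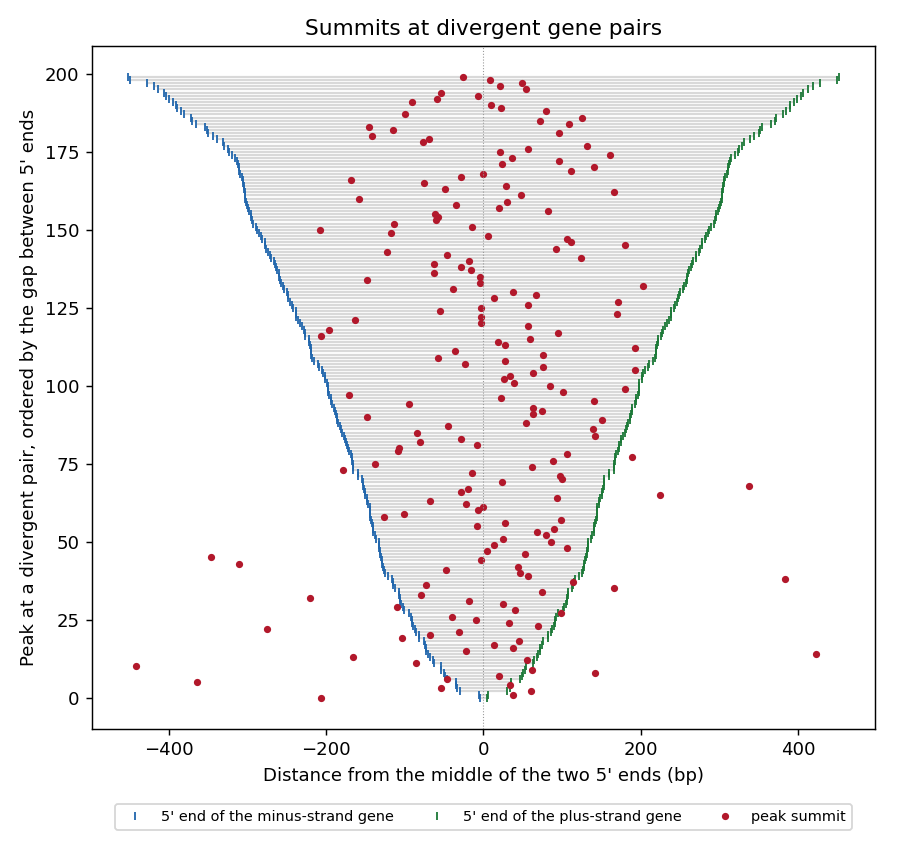
Each of the 200 rows is a peak at a divergent pair, ordered by the gap between the 5' ends; the horizontal axis is the distance in bp from the middle of the pair, ticks mark the 5' ends and red dots the summits. In 175 rows the dot lies between the ticks, and the 25 dots outside belong to narrow gaps in the lower part.

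The number of shared peaks depended on the limit of 500 bp: it was 55 with 200 bp and 494 with 1000 bp. Just inside it were tpp-2/rbbp-5 with the second 5' end 500 bp away (signal 67.8), clic-1/srr-10 at 499 bp (449) and F55A11.7/F55A11.8 at 498 bp (75.3). Just outside were kdp-1/csn-6 at 502 bp (90.5), cchl-1/fndc-1 at 503 bp (58.5) and ifet-1/rps-1 at 503 bp (245). Signals on both sides of the limit overlapped.

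Peaks at divergent pairs were stronger than single-promoter peaks by a modest factor in both replicates. The median signal of divergent peaks was 51.1 in replicate 1 and 49.7 in replicate 2, against 40.5 in replicate 1 and 39.5 in replicate 2 at single promoters, a ratio of 1.26 in each. In the series-wide list the medians were 95.2 at divergent pairs and 77.4 at single promoters. Over all 220 shared peaks the ratio was 1.26 in replicate 1 and 1.21 in replicate 2. The 20 other arrangements had medians of 43 in replicate 1 and 37.8 in replicate 2, the second of which is below that of single promoters. The distributions overlapped widely, from 42.5 to 3403 for divergent peaks and from 16.5 to 2721 for single-promoter peaks in the series-wide list. Placement moved with signal. With like placement compared, divergent peaks in the gap had medians of 52.4 in replicate 1 and 52.8 in replicate 2, against 44.9 in replicate 1 and 44 in replicate 2 for single-promoter peaks upstream.

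**Figure D3:**
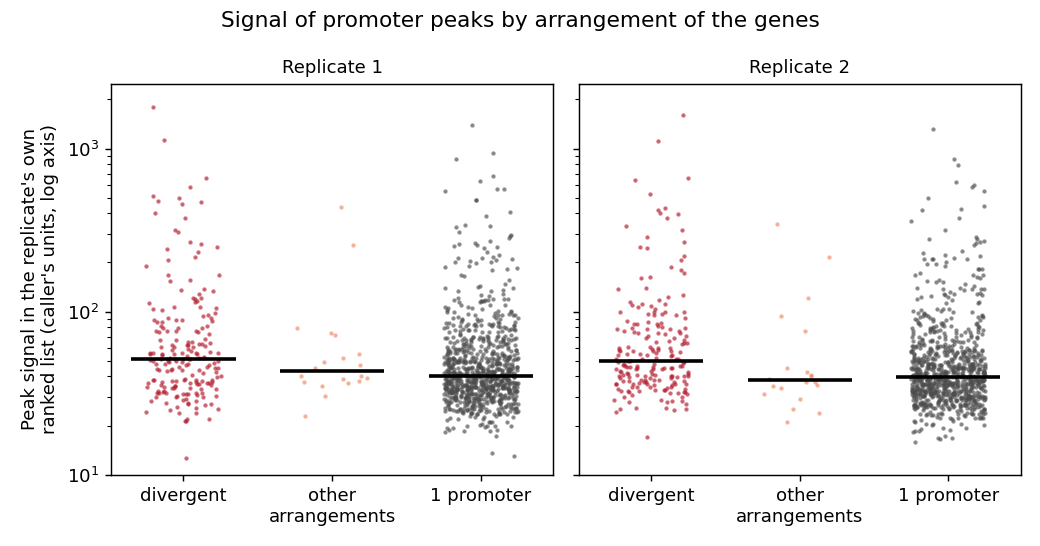
Signal of each promoter peak in the ranked list of replicate 1 (left) and replicate 2 (right), on a log axis in the caller's units, for divergent pairs, other arrangements and single promoters; each dot is a peak and the black bar the median. The divergent medians, 51.1 in replicate 1 and 49.7 in replicate 2, stand above the single-promoter medians of 40.5 in replicate 1 and 39.5 in replicate 2, and the clouds overlap.

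The strongest peaks were shared more often. Of the promoter peaks among the top 100, 26 of 76 were shared, 34.2% (23.7% to 46%). The share was 26.2% in the next 400 peaks (59 of 225 promoter peaks), 24.2% in the following 500 (52 of 215), 16.4% in the following 1000 (60 of 365) and 11.4% (7.39% to 16.7%) for the last 741.

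The replicates' own thresholded lists gave the same order. The choice of peaks did not use these lists, but the series-wide list was made from the same 2 replicates, so they are not independent of it. Of the 220 shared peaks, 122 (55.5%, 48.6% to 62.1%) overlapped a peak of replicate 1's list and 117 (53.2%, 46.4% to 59.9%) one of replicate 2's, against 40.3% of single-promoter peaks in replicate 1 and 38.2% in replicate 2. Over all 2741 peaks the shares were 32.7% for replicate 1 and 30.3% for replicate 2. The difference between shared and single-promoter peaks was 15.2 percentage points (Newcombe interval 7.81 to 22.4) in replicate 1 and 15 (7.65 to 22.2) in replicate 2. Between divergent peaks in the gap and upstream single-promoter peaks it was 11.1 points (2.6 to 19.2) in replicate 1 and 11.5 (3 to 19.7) in replicate 2. In the conservative list, made by comparing the replicates, 92.3% of shared peaks and 82.3% of single-promoter peaks were found, with 77.2% over all peaks. Since shared peaks also had higher median signals, the part of signal in these differences was not tested. Both replicate signals were known for 218 shared peaks, and in 208 of these, 95.4%, they were, as deposited, within 2-fold of each other, against 94.5% at single promoters.

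Ribosomal protein genes were frequent among the genes at shared peaks. Of 82 such genes 51 had a promoter peak of any kind, 62.2% against 6.26% of all protein-coding genes. A shared one was at 26 of them, 31.7% against 2.2% of all. The median series-wide signal of their shared peaks was 137, and the 3 strongest after rps-19/hsr-9 were rpl-15/K11H12.8 (308 in replicate 1 and 317 in replicate 2), rpl-20/Y17G9B.5 (266 and 268) and rpl-7A/set-21 (191 and 172). The summit was nearer to the ribosomal protein gene than to its partner in 11 of the 26. These genes are often paired, 58.5% of them against 17.7% of all protein-coding genes. Among the 48 that are in a divergent pair, 25 shared a peak with their partner, 52.1% (37.2% to 66.7%), and over all 3539 paired genes 410 did, 11.6% (10.5% to 12.7%). The part of the general difference in promoter peaks in this paired share was not tested. In 3 peaks both genes code for ribosomal proteins, at rps-14/rpl-36 (55.5 in replicate 1 and 68.7 in replicate 2), rpl-39/rps-30 (61 and 44.6) and rps-10/rpl-24.1 (31.6 and 57.3).

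Other gene groups also had shared peaks in more of their paired members than the 11.6% of all paired genes. These groups were also above the 6.26% of all protein-coding genes for promoter peaks of any kind, shared or single. That share was 39.5% for nuclear pore and transport, 32.4% for splicing and RNA binding and 27.9% for chaperones. It was 25% for vacuolar ATPase, 29.4% for germline and 50% for DREAM and synMuv B genes. The part of this general difference in the paired shares was not tested. Among paired nuclear pore and transport genes, 10 of 22 had a shared peak, 45.5% (24.4% to 67.8%), including npp-7, the exportin xpo-1, the importin-beta gene imb-1 and ran-1. For splicing and RNA binding genes it was 10 of 32, 31.2% (16.1% to 50%), and for chaperones 9 of 31, 29% (14.2% to 48%), including the CCT subunits cct-1, cct-5, cct-7 and cct-8. Vacuolar ATPase genes had 3 of 6 (vha-1, vha-18 and vha-8), 50% with a wide interval of 11.8% to 88.2%. Germline, oocyte and eggshell genes had 10 of 32, 31.2% (16.1% to 50%), led by pos-1, a maternal RNA-binding protein that shares its peak with vha-18 (63.4 in replicate 1 and 78.7 in replicate 2). The summit was nearer to the listed gene than to its partner in 2 of the 10 nuclear pore and transport genes and 2 of the 9 chaperones. It was nearer in 5 of the 10 splicing, 1 of the 3 vacuolar ATPase and 8 of the 10 germline genes. The peaks at xpo-1 and imb-1 met neither replicate's thresholded list. All 4 paired genes of the DREAM and synMuv B list had a shared peak, with a wide interval of 39.8% to 100%. They were lin-53, lin-54 with rpl-12 (156 in replicate 1 and 115 in replicate 2), lin-35, the worm Rb homologue, with vps-51 (67.4 and 55), and lin-61 with bub-1 (21.2 and 54.8). The rpl-12/lin-54 summit was 26 bp from rpl-12 and 367 bp from lin-54. The lin-61/bub-1 peak met no peak in replicate 1's thresholded list or in the conservative list.

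For several lists the interval included the 11.6% of all paired genes. Cell cycle and replication genes had 9 of 38 (23.7%, 11.4% to 40.2%), led by rfc-4, a clamp loader subunit that shares its peak with the translation elongation factor eef-1A.1 (105 in replicate 1 and 99.6 in replicate 2). Respiratory chain genes had 5 of 25 (20%, 6.83% to 40.7%), led by atp-1 with mcrs-1 (129 in replicate 1 and 112 in replicate 2), the others being cox-7C, isp-1, mev-1 and atp-5. Membrane traffic genes had 8 of 40 (20%), led by snx-13, and 1 pair of them, sec-61.B/trap-3 of the protein translocation channel, shared a peak (137 in replicate 1 and 118 in replicate 2). Translation factors had 4 of 22 (eef-1A.1, eef-1B.1, eef-2 and eef-1G), proteasome genes 3 of 21 (rpn-3, pbs-1 and rpn-9), ubiquitin genes 3 of 26 (ubc-6, usp-48 and ubq-2, which is also among the ribosomal proteins), transcription machinery 3 of 20 (mdt-26, mdt-9 and rpb-12) and aminoacyl-tRNA synthetases 1 of 11 (ears-2). Most of these intervals are wide because few genes of a list are paired.

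Core histone genes, 62 of which are in divergent pairs, had a shared peak in 8 cases, 12.9% (5.74% to 23.9%). They lay at 4 pairs, his-67/his-68 (51.1 in replicate 1 and 99.2 in replicate 2), his-63/his-64 (46.8 and 49.3), his-60/his-59 (35.1 and 58.7) and his-47/his-48 (38 and 46.2). Histone genes have near-identical copies, so how reads were shared among them is uncertain. In the last 2 pairs the summit lay in coding sequence.

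Chemoreceptor, F-box and C-type lectin genes had shared peaks in fewer of their paired members, with intervals below 11.6%. The intervals of all lists treat the 2 genes of a pair as independent, though a shared peak counts for both. They are thus too narrow where both partners are in 1 list, and the F-box value rests on 1 peak. Promoter peaks of any kind were also rare, at 0.534% of chemoreceptor, 1.24% of F-box and 2.92% of C-type lectin genes, against 6.26% of all. Chemoreceptor genes had 4 of 129 paired genes (3.1%, 0.851% to 7.75%), srr-10, sri-5, srh-16 and srj-9, F-box genes had 2 of 80 (2.5%, 0.304% to 8.74%), which share 1 peak at fbxa-56/fbxa-22 (25 in replicate 1 and 37.6 in replicate 2), and C-type lectins had 1 of 53 (1.89%, 0.0478% to 10.1%), clec-88, while clec-140 had a same-strand peak. The intervals of 5 more lists included 11.6%. Mitochondrial ribosomal protein genes had 1 of 26 (mrpl-18, 0.0973% to 19.6%), cuticle collagens 1 of 20 (col-38, whose partner is rpl-5, 0.127% to 24.9%) and nuclear hormone receptors 1 of 18 (nhr-47, whose partner is dnj-19, 0.141% to 27.3%). Homeobox genes had 1 of 5 (ceh-38, 0.505% to 71.6%) and neuropeptides 0 of 10 (0% to 30.8%). At srr-10 the summit lay 499 bp away and 209 bp from its partner clic-1. Of all 200 divergent peaks, 97 had no gene in any of the 24 lists, 82 had 1 and 21 had 2, of which 11 had both genes in the same list, also snr-3/rsp-5 (33.4 in replicate 1 and 46.6 in replicate 2).

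**Figure D4:**
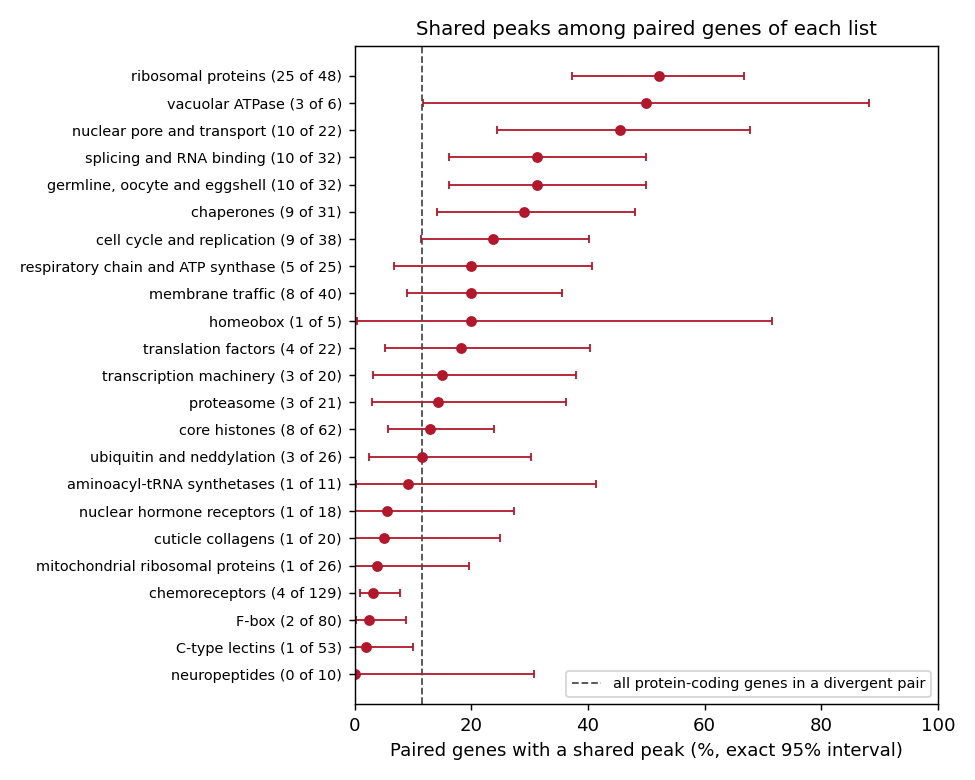
For each gene list with at least 5 genes in a divergent pair up to 1000 bp apart, the percentage of those genes that had a peak shared with the partner (horizontal axis), with exact 95% intervals and counts in brackets; the dashed line is the 11.6% of all paired protein-coding genes. Ribosomal proteins lie at 52.1% and chemoreceptors at 3.1%.

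Shared peaks were spread over the autosomes and sparse on X. Divergent pairs with a shared peak numbered 44 of 323 on I, 34 of 331 on II, 45 of 303 on III, 44 of 321 on IV, 36 of 435 on V and 4 of 81 on X, which is 4.94% on X (1.36% to 12.2%) and 11.9% on the autosomes together (10.4% to 13.5%). The intervals overlap. The 4 on X were at sec-15/C28G1.2, Y41G9A.10/Y41G9A.5, VB0395L.1/nhx-1 and trap-2/ile-2, with signals of 22 to 45.1 in replicate 1 and 34.4 to 51.3 in replicate 2.

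Most shared summits, 186 of 220, were intergenic, with 16 in a UTR exon, 11 in coding sequence and 7 in an intron. At single promoters 57.5% were intergenic and 26.3% in coding sequence. A non-coding gene had its 5' end within 500 bp of 33 shared summits (15%) and of 128 single-promoter summits (14.8%). Among these, tRNA genes were near 1 shared summit (0.455%) and near 26 single-promoter summits (3.02%).

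The bound stretch was a narrow GC-rich island. The 100 bp at the summit had a median GC content of 49% at shared peaks and 47% at single promoters, an order that turned in a window of 200 bp (41.8% and 42.5%). The flanks 200 to 300 bp away had 35.5% at shared peaks and 35% at single promoters. The summit exceeded its own flanks in 198 of 220 shared peaks (90%) and in 747 of 862 single-promoter peaks (86.7%). GC content dropped to a median of 32% 100 bp from shared summits on either side, and to 37% at single promoters. CG dinucleotides averaged 7.83 per 100 bp at shared summits and 6.69 at single-promoter summits. The 100 bp at the middle of the gap had 39% GC in pairs with a shared peak and 33% in pairs with no peak at either gene.

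**Figure D5:**
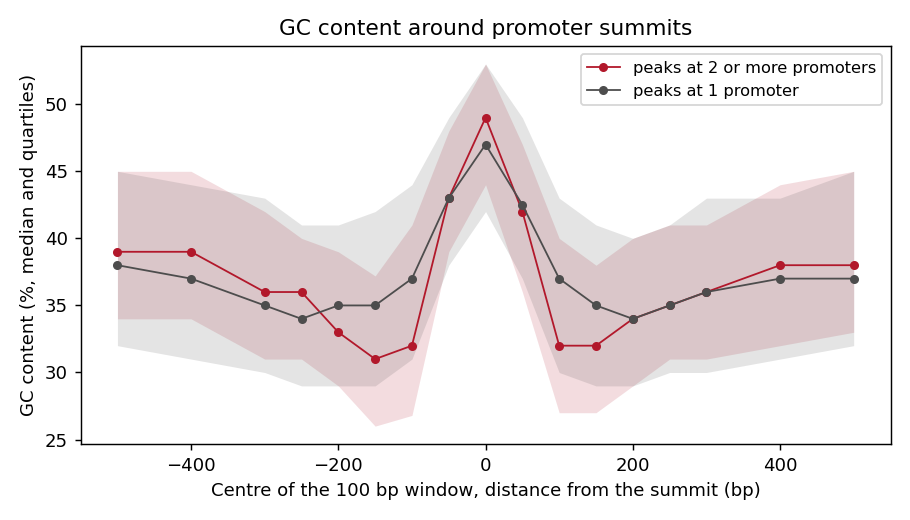
Median GC content (percent, lines) with quartiles (shading) in 100 bp windows by distance from the summit, for peaks at 2 or more promoters (red) and at 1 promoter (grey). Both peak at the summit, at 49% for shared and 47% for single-promoter peaks, and the red line is lower at 100 bp on either side, 32% against 37%.

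The letters of that island were shared in part. The 10 8-mers, each counted on both strands, were CGCGACGC, GCGAGACC, CGAGACCC, AAACGCGC, GCGCGAAA, AGACGCAG, CGCGTCGC, GAGACGCA, CCGCGACG and GCGCCAGC, several of which overlap one another. At least 1 was found in the 100 bp of 87 of 220 shared summits, 39.5% (33% to 46.3%), and in 3 and 4 of the 220 windows on the lower and upper flank. All 10 contain CG and the flanks had lower GC content. The part of composition in this and later 8-mer shares was not tested. Single-promoter summits had the 8-mers in 195 of 862, 22.6% (19.9% to 25.6%), a share raised by the ranking on those same peaks. Summits at no promoter, with a median GC content of 47%, had them in 168 of 1659, 10.1% (8.72% to 11.7%). Of all protein-coding genes, 3.96% had them in the 100 bp centred 150 bp upstream of the 5' end. Shared peaks with a ranked 8-mer had a median signal of 59.4 in replicate 1 and 59.8 in replicate 2, and those without had 46.8 in replicate 1 and 44.9 in replicate 2.

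Placement and signal moved with this difference. Upstream single-promoter peaks held an 8-mer in 32% (28.1% to 36.1%), and shared peaks exceeded them by 7.55 points (0.137 to 15.1). Among the strongest 25% of each class by signal the shares were 56.4% of 55 shared peaks and 50.2% of 215 single-promoter peaks, a difference of 6.13 points with an interval of -8.54 to 20.1 that includes 0. Among the remaining peaks they were 33.9% of 165 shared and 13.4% of 647 single-promoter peaks, a difference of 20.5 points (13.1 to 28.4). Each class was cut at its own upper quartile of series-wide signal, 170 for shared and 110 for single-promoter peaks. Neither comparison was therefore matched on signal. In the replicates' own shorter lists the 8-mers were ranked anew. The shares were 46.8% (37.8% to 55.9%) of shared and 39.4% of single-promoter peaks in replicate 1. In replicate 2 they were 43.8% (34.8% to 53.1%) of shared and 36.3% of single-promoter peaks. Both intervals include the single-promoter share of the same replicate. The part of placement and signal in the 8-mer shares was not tested further.

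The top-ranked 8-mer CGCGACGC was found mostly in strong peaks. It was found in 16 of the 55 strongest shared peaks (29.1%, 17.6% to 42.9%) and in 2 of the other 165 (1.21%, 0.147% to 4.31%). At single promoters it was in 37 of the strongest 215 (17.2%, 12.4% to 22.9%) and in 7 of the other 647 (1.08%). The other ranked 8-mers did not all follow it. At shared peaks AAACGCGC was in 5.45% of the strongest and 9.7% of the other peaks, and GCGCCAGC in 1.82% and 7.27%. AGACGCAG and GAGACGCA were also less frequent in the strongest shared peaks, and the remaining 8-mers were more frequent there. At single promoters each of the 10 was more frequent in the strongest peaks. At the fixed middle of the gap, a place not chosen by a summit, any of the 10 was present in 41 of 207 pairs with a shared peak (19.8%, 14.6% to 25.9%) and in 86 of 1498 pairs with no peak at either gene (5.74%, 4.62% to 7.04%). A match of letters is a description and not evidence of a site, and 133 of the 220 shared summits held none.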

How the data were processed

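The measurement was chromatin immunoprecipitation of tagged MADF-3 in 2 replicates of 1 group. The deposited lists hold peaks in ce11 made from each replicate or from both and filtered by the irreproducible discovery rate, per the deposited descriptions and labels. The signal of a peak, deposited by the authors, is the strength the peak caller gave it. The scaling, aligner, caller and control are not given in the sources here, so groups of peaks were compared only within 1 list. The signals of both replicates are set side by side as deposited, on scales not known to be the same.

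Here the series-wide thresholded list gave the peaks, and the summit was the start plus the deposited offset. Genes were the 19973 protein-coding genes of Ensembl release 115 on WBcel235, the same assembly as ce11, and sequence came from the RefSeq copy of it; the sequence of 1 further gap is not reported here. The 5' end was the gene's annotated start. A replicate's signal is the highest of an overlapping peak, by at least 1 bp, in its own ranked list. Intervals are at 95%: exact binomial for shares, exact Poisson for densities, exact conditional for ratios of densities and Newcombe for differences. No test between conditions was possible with 1 group, and the labels call the replicates biological.

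The 8-mers were ranked by the number of single-promoter peaks holding them in the summit window minus the flanks. Members, lists and comparisons were chosen with earlier results of these data known. The number of 8-mers and the flank distance, the classes of gap, the shares among paired genes and the comparisons by placement and strength were set after seeing the data, and list patterns were corrected after a first run had matched wrong genes. Named genes are those at the 12 strongest divergent and 6 strongest other peaks, pairs with both genes in 1 list, the strongest of each list, peaks at the limit, the narrowest and widest pairs, and genes in counts of 5 or fewer; other examples named from the gene lists were chosen after their values were seen.

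Alternatives were windows of 200 and 1000 bp, the conservative list, each replicate's own list, the stronger peaks, transcript 5' ends, autosomes alone, a larger overlap, a summit window of 200 bp and flanks 400 to 500 bp away. The scripts, in Python 3.11.15 with numpy 2.4.6, pandas 2.3.3 and scipy 1.17.1, were tested on simulated data.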

Additional observations from a re-analysis of the deposited data

How the results depend on the processing

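Across 77 alternative values, each taken singly, 36 stayed within their limits and 41 moved. A change of sign could be recorded only for the density ratio and the signal ratio, and 0 of these changed sign. The order of shared and single-promoter GC turned in 1 setting. The limit for GC was the spread between the values from each replicate's list, which were equal, so any change in GC counted as moved. With a window of 200 bp there were 55 shared and 48 divergent peaks (9.6% of promoter peaks, density ratio 4.88, 81.2% in the gap, signal ratio 1.15). With 1000 bp there were 494 and 318 (32.7%, 3.04, 77.7% and 1.3). Each replicate's own, shorter list, the other left out, gave 121 to 124 shared and 114 to 115 divergent peaks, 25.2% to 26.1% of promoter peaks, a density ratio of 5.19 to 5.45 and a signal ratio of 1.18 to 1.28. There GC was 50% at shared and 49% at single-promoter summits, and the ranked 8-mers were in 43.8% to 46.8% of shared and 36.3% to 39.4% of single-promoter peaks. The stronger peaks gave 25%, a density ratio of 5.14, a signal ratio of 1.16, GC of 49.5% at shared and 49% at single-promoter summits, and 70.1% of shared peaks met in each replicate's list. The signal ratio was 1.26 in the conservative list, with GC of 48% at single promoters, 1.29 with transcript 5' ends and 1.24 on autosomes. A summit window of 200 bp gave GC of 41.8% at shared and 42.5% at single-promoter summits, the reverse order to 100 bp, and 8-mers in 48.6% of shared peaks. The causes of these moves were not tested. No paired analysis was possible because there is 1 group. The number of shared peaks depends on the window, and depth is unknown.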
